A study of Mus musculus with 12 samples.

Results

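Immediate early genes are the first genes that a cell transcribes after a growth factor, a cytokine, damage or mechanical stress, from transcription factors that are already present when the signal arrives. Their RNA is short-lived, so the amount found in a tissue depends on recent signalling, and handling of tissue before RNA is fixed is also known to induce them. Many of their proteins are transcription factors of the AP-1 family, which bind DNA as dimers, and others are brakes that remove the induced RNA or switch off the MAP kinases that induced it. The 10 genes described here are Fos, Fosb, Jun, Junb, Egr1, Ier2, Ier3, Zfp36, Atf3 and Dusp1. They were chosen by gene symbol from the 45777 genes in the deposited count table. All 10 were found there under 1 gene ID each, and all 10 were among the 17885 genes with enough counts to be tested.

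The RNA came from subcutaneous tumours of 393P, a mouse lung cancer cell line, grown in the flank of 8-week-old male 129S2/SvPasCrl mice. There were 4 groups of 3 libraries each: MAVS reconstituted tumours given the MPS1 inhibitor, MAVS reconstituted control tumours, MAVS knockout tumours given the MPS1 inhibitor, and MAVS knockout control tumours. MAVS is the mitochondrial adaptor that passes on signals from cytosolic RNA sensors, and the mice were not themselves altered as far as the labels say. The inhibitor, BAY-1217389, blocks the spindle checkpoint kinase MPS1 (gene Ttk) and was given at 5 mg/kg 2 times daily for 2 days, with tumours taken the next day. The labels call the control groups Control or Veh and do not say what these mice received. Titles of the knockout samples read Luc, which the labels do not explain. Since each genotype is its own injected cell population, an effect of MAVS and any other difference between the cell populations cannot be told apart. The labels call the libraries replicates without saying that each came from its own mouse, and p-values therefore cover only the spread between libraries.

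Library totals ran from 52983715 to 69108411 counts, and levels are given as CPM, counts relative to a library's TMM-scaled total. Mavs had 50.1 to 85.1 CPM in the 6 reconstituted libraries and 39.4 to 45.7 CPM in the 6 knockout libraries, so its RNA was still counted in the knockout and the groups did not overlap. Of 8 epithelial markers, 7 were above 0 in every library and 1, Cldn7, was listed at 0 in all 12. Markers of macrophages, fibroblasts, T cells and skeletal muscle were also present, so these libraries hold RNA of several cell types. In such bulk samples, fewer cells of a type and less RNA per cell cannot be told apart. The first inhibitor-treated reconstituted library stood apart in 3 marker lists. Its 8 epithelial markers summed to 10131 CPM, against 6397 to 8192 CPM in the other 11 libraries. Its 8 skeletal muscle markers summed to 2542 CPM, against 1.55 to 710.2 CPM in the other 11 libraries. Its 8 fibroblast and pericyte markers summed to 2884 CPM, against 6945 to 18038 CPM in the others.

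Promoter stretches of 3 genes are shown because the tests below turn on these genes, and so that a reader can see which letters of well-known response elements lie near their starts. The sequences come from RefSeq promoters on GRCm38.p6 and run 5′ to 3′ on the gene's own strand. Ier3 lies on the plus strand at chr17:35821713-35822911, and the stretch at chr17:35821563-35821683 lies just upstream of its start, with a match to the NF-kB motif in capitals. Zfp36 lies on the minus strand at chr7:28376784-28379228, and the stretch at chr7:28379267-28379296 has a CArG box, the element bound by serum response factor, in capitals. A longer GENCODE transcript of Zfp36 covers the searched window, so this stretch is upstream of the RefSeq start only. Jun lies on the minus strand at chr4:95049036-95052222, and the stretch at chr4:95052223-95052372 is the 150 bases before its start, in which no motif searched for was matched.
Ier3: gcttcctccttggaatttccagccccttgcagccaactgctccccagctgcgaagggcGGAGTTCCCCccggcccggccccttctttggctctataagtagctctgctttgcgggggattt
Zfp36: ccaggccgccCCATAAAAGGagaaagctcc
Jun: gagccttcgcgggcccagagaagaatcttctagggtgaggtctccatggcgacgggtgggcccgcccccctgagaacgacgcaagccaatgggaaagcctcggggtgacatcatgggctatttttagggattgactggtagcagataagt

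A promoter was listed for 8 of the 10 genes, all but Egr1 and Ier2. The 250 bases before each start were searched on both strands and set beside 27025 promoters of the same length. The core of the cAMP response element, TGACG, occurred in 5 of the 8 (Fos, Fosb, Junb, Atf3 and Dusp1) and in 17.9% of all promoters. The whole element TGACGTCA, which holds that core, occurred in Dusp1 and in 1.62% of all. The NF-kB motif occurred in Fos, Fosb and Ier3 and in 7.01% of all, the EGR motif GCGNGGGCG in Fosb and Zfp36 and in 4.65%, and the CArG box in Zfp36 and in 1.40%. The STAT element TTCNNNGAA occurred in Zfp36 and in 7.18% of all, and the TATA sequence TATAAA in Fos and in 13.0%. The AP-1 element TGANTCA and the interferon-stimulated response element were in none of the 8, against 6.87% and 3.04% of all promoters. These are matches of letters in a window, not measured binding sites. Bases farther upstream were not searched, nor were Egr1 and Ier2, so a gene without a match here may still have the element.

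Levels differed widely among the 10 genes. Per kilobase of exon in GENCODE, the mean over all 12 libraries was 113 CPM for Junb, 80.7 for Ier3, 34.4 for Jun, 32.1 for Ier2, 19.6 for Dusp1 and 15.5 for Zfp36. It was 9.49 CPM per kilobase for Egr1, 6.58 for Atf3, 2.84 for Fosb and 2.83 for Fos. Fos, often taken as the prototype of the class, thus had the lowest level. On this scale it did not stand apart from Fosb, since the libraries ranged over 1.58 to 4.81 CPM per kilobase for Fos and 1.14 to 6.96 for Fosb. The Fosb value rests on 6243 exon bases in a gene of 7423 bases. Without division by length, the median over the 12 libraries was 15.9 CPM for Fosb and 6.08 CPM for Fos. The ranges of Jun and Ier2 also overlapped, at 26.1 to 43.1 and 20.4 to 50.3 CPM per kilobase. The Zfp36 value rests on an exon length that includes an upstream exon of GENCODE which RefSeq lacks. For Junb, Egr1 and Dusp1 the exon length also exceeds the RefSeq gene length, so the order may depend on the lengths used.

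**Figure D1:**
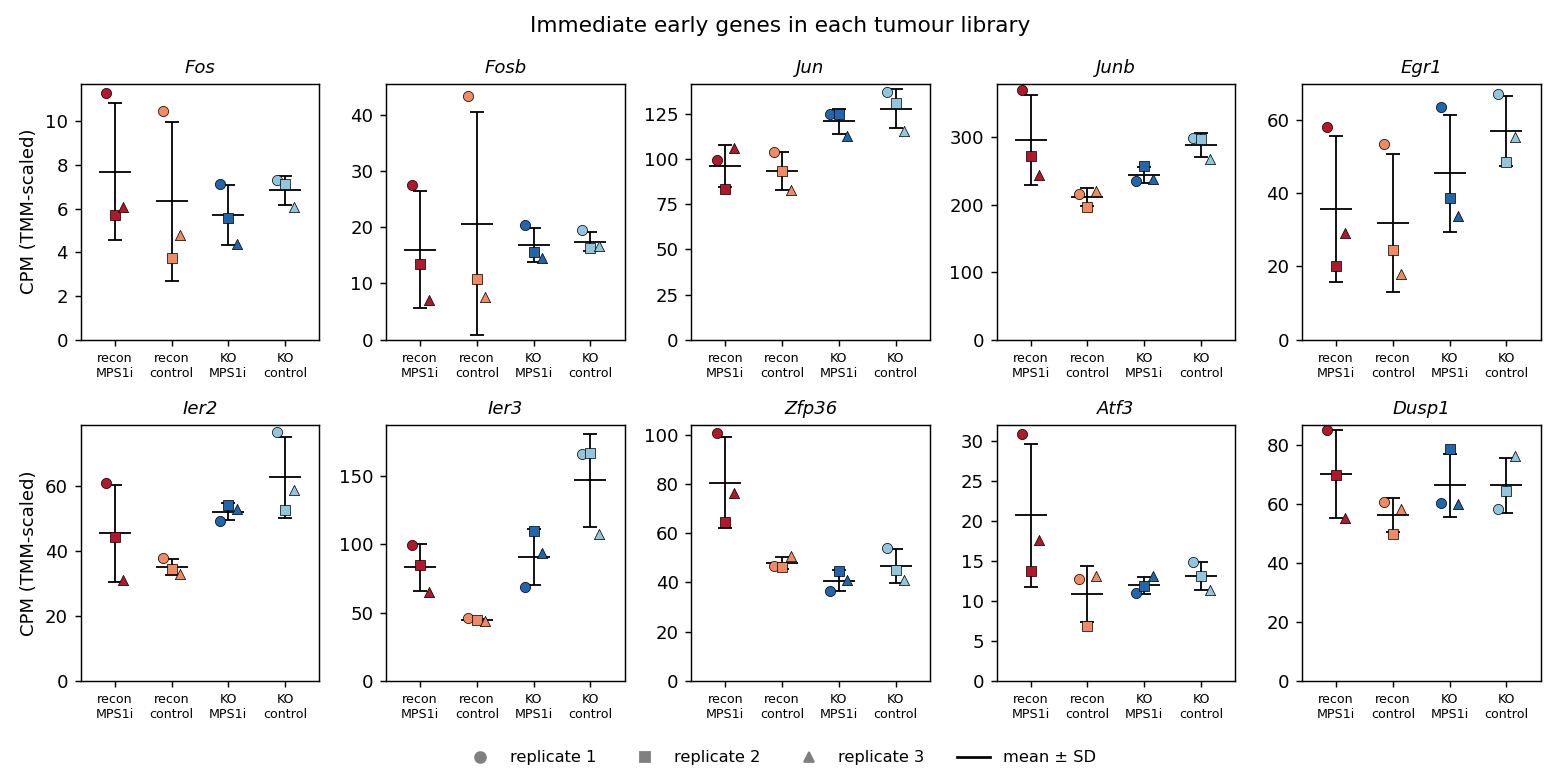
CPM (y axis, scaled with TMM factors, each panel from 0) of the 10 immediate early genes in the 4 groups, with 1 symbol per library by replicate number and the mean ± SD as a bar. Ier3 was lowest in all 3 reconstituted control libraries, Zfp36 was highest in all 3 inhibitor-treated reconstituted libraries, and Fosb and Egr1 had wide bars in the reconstituted groups.

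Among the AP-1 subunits, Jun and Junb, which encode partners of FOS proteins, differed between genotypes in control tumours without overlap of libraries. Jun had 99.6, 83.7 and 106 CPM in inhibitor-treated reconstituted tumours and 104, 93.7 and 83.1 CPM in reconstituted controls. Jun had 125, 125 and 113 CPM in inhibitor-treated knockout tumours and 137, 131 and 116 CPM in knockout controls. All 6 reconstituted libraries lay below all 6 knockout libraries, and the inhibitor groups overlapped their controls in both genotypes. Averaged over treatments, Jun was lower in reconstituted than in knockout tumours by a log2 difference of -0.39 ± 0.08 (SE), with an adjusted p of 0.0343 by edgeR's quasi-likelihood test. The log2 difference was -0.33 ± 0.11 under the inhibitor and -0.45 ± 0.11 in controls, neither of which passed on its own (adjusted p = 0.155 and 0.150 by edgeR). The averaged call is marginal. It held when any of 3 libraries was left out (reconstituted MPS1 inhibitor 3, reconstituted control 1 or knockout control 3). Without any of the other 9 libraries the adjusted p was 0.0508 to 0.0973, with log2 differences of -0.42 to -0.35. Jun overlaps its antisense transcript Junos in GENCODE, and since the sources used here do not say whether counting used strand, reads of the pair cannot be told apart.

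Junb, which encodes an AP-1 subunit that can oppose JUN, had the highest counts of the 10. Its values were 370.5, 272 and 243 CPM in inhibitor-treated reconstituted tumours and 216, 196 and 220.3 CPM in reconstituted controls. They were 236, 258 and 238 CPM in inhibitor-treated knockout tumours and 299, 298 and 267 CPM in knockout controls. Inhibitor-treated libraries thus lay above all controls in reconstituted tumours and below all controls in knockout tumours. The log2 difference, inhibitor minus control, was 0.49 ± 0.13 in reconstituted tumours and -0.24 ± 0.13 in knockout tumours (adjusted p = 0.0729 and 1 by edgeR). Without the first inhibitor-treated reconstituted library, the highest of all 12 for Junb, the difference in reconstituted tumours was 0.29. Between genotypes the log2 difference, reconstituted minus knockout, was -0.45 ± 0.13 in controls and 0.28 ± 0.13 under the inhibitor (adjusted p = 0.170 and 0.275 by edgeR). In GENCODE the Junb gene shares 351 bases with Prdx2 on the opposite strand, and its counts are uncertain to that extent.

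Fos and Fosb encode the FOS subunits of AP-1, which need a JUN partner to bind DNA. Fos had 11.3, 5.70 and 6.09 CPM in inhibitor-treated reconstituted tumours, 10.5, 3.73 and 4.78 CPM in reconstituted controls, 7.15, 5.57 and 4.40 CPM in inhibitor-treated knockout tumours, and 7.29, 7.15 and 6.08 CPM in knockout controls. Fosb had 27.5, 13.4 and 7.11 CPM in inhibitor-treated reconstituted tumours, 43.5, 10.7 and 7.64 CPM in reconstituted controls, 20.3, 15.6 and 14.6 CPM in inhibitor-treated knockout tumours, and 19.4, 16.2 and 16.7 CPM in knockout controls. For both genes the groups overlapped in every comparison, and no adjusted p was below 0.52 by edgeR. The highest library of each group was the one numbered 1. Fosb spanned 6.11-fold over the 12 libraries and had the largest spread within groups of the 10 genes. Its log2 differences carried standard errors of 0.59, so that inhibitor minus control in reconstituted tumours was -0.37 ± 0.59 and reconstituted minus knockout in controls was 0.24 ± 0.59.

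Egr1 encodes a zinc finger transcription factor induced through serum response factor. It had 58.2, 20.0 and 29.0 CPM in inhibitor-treated reconstituted tumours and 53.4, 24.5 and 18.1 CPM in reconstituted controls. It had 63.6, 38.9 and 33.8 CPM in inhibitor-treated knockout tumours and 67.3, 48.5 and 55.3 CPM in knockout controls. The reconstituted groups held both low libraries and a high one, numbered 1, that reached into the knockout range. The log2 difference, reconstituted minus knockout, was -0.83 ± 0.44 in controls, -0.35 ± 0.44 under the inhibitor and -0.59 ± 0.31 averaged over treatments (adjusted p = 0.330, 0.666 and 0.419 by edgeR). The other 4 reconstituted libraries lay below all 6 knockout libraries. Leaving out both reconstituted libraries numbered 1 was an alternative chosen after their high values were seen, so a lower value follows from the choice. It gave -1.16 averaged over treatments, -1.42 in controls and -0.89 under the inhibitor (adjusted p = 0.0332, 0.134 and 0.287 by edgeR).

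Atf3 encodes a stress-induced transcription factor that dimerises with AP-1 subunits and represses many inflammatory genes. It had 30.8, 13.7 and 17.6 CPM in inhibitor-treated reconstituted tumours and 12.7, 6.82 and 13.1 CPM in reconstituted controls. It had 11.0, 11.8 and 13.1 CPM in inhibitor-treated knockout tumours and 14.9, 13.1 and 11.4 CPM in knockout controls. The inhibitor-treated reconstituted libraries lay above those of both groups they were compared with, though by a small margin for the lowest of them. The log2 difference was 0.93 ± 0.30 against reconstituted controls and 0.79 ± 0.30 against inhibitor-treated knockout tumours (adjusted p = 0.0785 and 0.185 by edgeR). Without the first inhibitor-treated reconstituted library these were 0.53 and 0.39.

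Zfp36 encodes tristetraprolin, which binds AU-rich elements and speeds the decay of cytokine and immediate early messages. It was higher in reconstituted than in knockout tumours under the inhibitor, with a fold of 1.98, and it is the only 1 of the 10 genes called in that comparison. Zfp36 had 101, 64.6 and 76.1 CPM in inhibitor-treated reconstituted tumours and 46.5, 46.2 and 50.9 CPM in reconstituted controls. It had 36.4, 44.7 and 41.0 CPM in inhibitor-treated knockout tumours and 54.0, 44.9 and 40.9 CPM in knockout controls. The 3 inhibitor-treated reconstituted libraries lay above the other 9, which stayed between 36.4 and 54.0 CPM. The log2 difference, reconstituted minus knockout under the inhibitor, was 0.98 ± 0.16 with an adjusted p of 0.0274 by edgeR, against 116 genes (0.649%) called among all tested. Averaged over treatments it was 0.51 ± 0.11 (adjusted p = 0.0476). Inhibitor minus control in reconstituted tumours was 0.75 ± 0.16, which did not pass (adjusted p = 0.0729), and averaged over genotypes it was 0.28 ± 0.11 (adjusted p = 0.522).

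The Zfp36 call under the inhibitor held in 8 of 12 fits that each left out 1 library. It was lost without reconstituted MPS1 inhibitor 1 (log2 difference 0.79, adjusted p = 0.0607) and without knockout MPS1 inhibitor 1, 2 or 3 (0.90, 1.06 and 0.99, adjusted p = 0.183, 0.0929 and 0.112 by edgeR). The call was also lost with the 6 libraries compared alone (adjusted p = 0.0867), with the replicate number as a block (0.0574), and without both reconstituted libraries numbered 1 (log2 difference 0.79, adjusted p = 0.101). The averaged call held only without reconstituted MPS1 inhibitor 2 or knockout control 1, and the adjusted p was 0.0541 to 0.125 without any of the other 10. Markers of T cells and macrophages moved with it, while those of neutrophils overlapped. The 8 T cell markers summed to 28.2 to 36.4 CPM in inhibitor-treated reconstituted tumours and 14.5 to 23.6 CPM in inhibitor-treated knockout tumours. The 8 macrophage markers summed to 1759.8 to 2257 CPM and 1283 to 1713 CPM in the same groups. The neutrophil markers summed to 49.8 to 63.4 and 45.7 to 58.7 CPM, and the fibroblast and pericyte markers to 2884 to 8774 and 7609 to 14767.5 CPM. None of the T cell and macrophage markers was at 0 in the 6 libraries, and the part of all these cells in the Zfp36 result was not tested. In GENCODE an antisense transcript, Gm44710, overlaps the gene.

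Dusp1 encodes a phosphatase that inactivates p38 and JNK kinases. It had 85.1, 70.0 and 55.3 CPM in inhibitor-treated reconstituted tumours and 60.6, 49.8 and 58.5 CPM in reconstituted controls. It had 60.4, 78.8 and 59.9 CPM in inhibitor-treated knockout tumours and 58.3, 64.3 and 76.5 CPM in knockout controls. All groups overlapped, and the log2 difference, inhibitor minus control in reconstituted tumours, was 0.32 ± 0.17 (adjusted p = 0.209 by edgeR). Parts of the gene overlap Ergic1 on the opposite strand in GENCODE.

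Ier3 and Ier2 encode small proteins without a known enzyme activity, IER3 acting in stress survival and IER2 in the nucleus as a regulator of transcription. Ier3 had the largest difference between genotypes of the 10 genes: in control tumours it was lower when the cells carried MAVS again, at 0.305 of the knockout level. Ier3 had 99.5, 84.6 and 65.0 CPM in inhibitor-treated reconstituted tumours and 45.7, 44.6 and 43.9 CPM in reconstituted controls. It had 69.0, 109.7 and 93.3 CPM in inhibitor-treated knockout tumours and 166, 167 and 108 CPM in knockout controls. The reconstituted controls were the 3 lowest of all 12 libraries and lay close together, with a mean of 44.7 ± 0.90 CPM, against 146.7 ± 33.9 CPM in knockout controls (SD, n = 3 each). The inhibitor-treated groups overlapped each other and lay above the reconstituted controls, and 1 inhibitor-treated knockout library reached the lowest knockout control.

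For Ier3 the log2 difference, reconstituted minus knockout, was -1.71 ± 0.21 in controls, with an adjusted p of 0.0137 by edgeR. Only 25 genes (0.14%) were called in that comparison, 4 of them lower (0.0224%), and Ier3 ranked sixth of 17885 by p. Averaged over treatments the difference was -0.92 ± 0.15 (adjusted p = 0.0116). Inhibitor minus control was 0.89 ± 0.21 in reconstituted tumours, where the groups did not overlap, and -0.69 ± 0.21 in knockout tumours, where they did, and neither passed (adjusted p = 0.0729 and 1). The averaged call held in all 12 fits that left out 1 library. The call in controls was lost in 4 of 12: the adjusted p was 0.0759, 0.0508 and 0.0592 without reconstituted control 1, 2 or 3 and 0.0873 without knockout control 2, with log2 differences of -1.73 to -1.61. In the same comparison the 8 epithelial markers summed to 6397 to 6816 CPM in reconstituted controls and 7509 to 7924 CPM in knockout controls. Their median log2 difference was -0.22. Medians were lower still for red blood cell (-1.81), neutrophil (-0.61), keratinocyte (-0.57), fibroblast (-0.55) and macrophage (-0.34) markers, whose sums overlapped. They were above 0 for T cell (0.13) and skeletal muscle (0.86) markers. The part of all these cells in the Ier3 result was not tested.

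Ier2 had 60.9, 44.4 and 31.0 CPM in inhibitor-treated reconstituted tumours and 37.8, 34.4 and 33.0 CPM in reconstituted controls. It had 49.3, 54.3 and 52.8 CPM in inhibitor-treated knockout tumours and 76.6, 52.6 and 59.0 CPM in knockout controls. As for Ier3, the reconstituted controls lay below all knockout controls. The log2 difference was -0.84 ± 0.21 in controls and -0.52 ± 0.15 averaged over treatments (adjusted p = 0.152 and 0.115 by edgeR). The inhibitor-treated reconstituted libraries ranged from the lowest to the second highest value of all 12, and inhibitor minus control there was 0.37 ± 0.21 (adjusted p = 0.226).

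**Figure D2:**
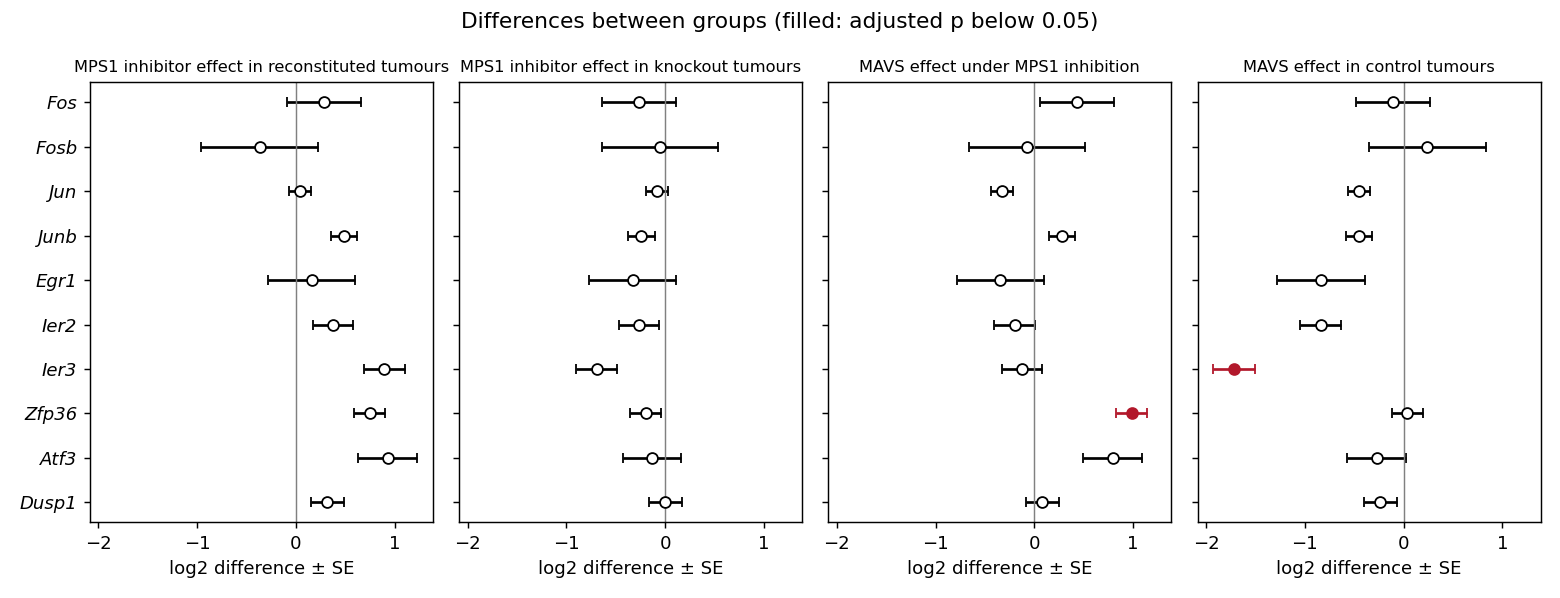
Log2 differences ± SE (x axis) of each gene in 4 comparisons, inhibitor minus control within each genotype and reconstituted minus knockout within each treatment, with filled points at an edgeR adjusted p below 0.05. The filled points are Zfp36 under MPS1 inhibition at 0.98 and Ier3 in control tumours at -1.71, and the bars of Fosb and Egr1 are the longest.

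Taking the 10 genes by comparison, the MPS1 inhibitor went with higher values in reconstituted tumours for 9 of 10, the exception being Fosb. The median log2 difference was 0.35, beside -0.01 over all genes tested. None was called, and 0% of all genes were: the smallest adjusted p of any gene was 0.0729 by edgeR, though 4 of the 10 and 5827 of all genes (32.6%) had an unadjusted p below 0.05. DESeq2 called 4 of the 10 (Atf3, Ier3, Junb and Zfp36) and 3490 of all genes. In 4 of 10 (Junb, Ier3, Zfp36 and Atf3) the inhibitor libraries lay above all controls, a pattern that 14.7% of all genes had. The absence of calls with edgeR also depended on the libraries. Without reconstituted MPS1 inhibitor 3, edgeR called 6 of the 10 (the same 4 with Ier2 and Dusp1) and 5683 of all genes. Several marker sums differed in this comparison. T cell markers summed to 28.2 to 36.4 CPM with the inhibitor and 12.2 to 27.2 CPM in controls, macrophage markers to 1759.8 to 2257 and 1275 to 1631 CPM, and epithelial markers to 6937 to 10131 and 6397 to 6816 CPM. Neutrophil markers summed to 49.8 to 63.4 and 44.8 to 48.4 CPM. Fibroblast and pericyte markers went the other way with overlap, at 2884 to 8774 and 8538 to 9005 CPM. None of the T cell and macrophage markers was at 0 in these 6 libraries. Cldn7 was at 0 among the epithelial ones, and up to 3 neutrophil markers were at 0 in a library. The part of all these cells in the result was not tested.

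In knockout tumours 9 of 10 genes had lower values with the inhibitor than in controls, with Dusp1 alike in both. The median log2 difference was -0.22, beside 0.00 over all genes. None of the 10 and 0% of all genes were called by edgeR, and 1 of the 10 (Ier3) and 305 of all genes (1.71%) had an unadjusted p below 0.05. DESeq2 called none of the 10 and 3 of all genes. Only Junb had inhibitor libraries wholly below its controls, a pattern seen in 4.25% of all genes, and none had them wholly above (4.47% of all genes).

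**Figure D3:**
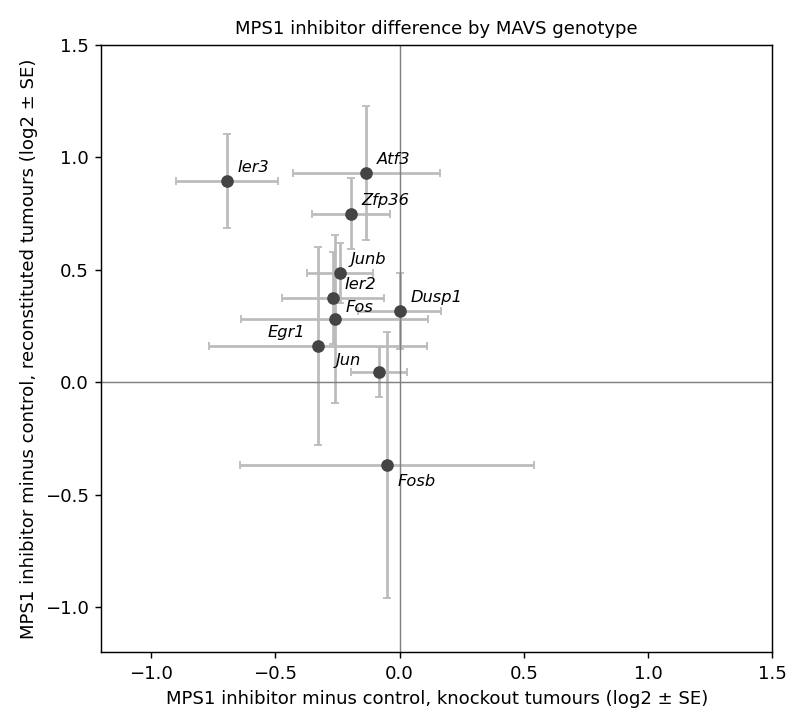
Log2 difference ± SE, inhibitor minus control, in knockout tumours (x axis) against that in reconstituted tumours (y axis) for the 10 genes. Ier3, Zfp36, Atf3 and Junb lie in the upper left, with Ier3 at 0.89 in reconstituted and -0.69 in knockout tumours, and 8 of the 10 genes are above 0 on the y axis and below 0 on the x axis.

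The test of the difference itself, the interaction of MAVS genotype and inhibitor, called none of the 10 and 0% of all genes by edgeR. The interaction log2 difference was 1.59 ± 0.29 for Ier3, 0.94 ± 0.22 for Zfp36 and 0.73 ± 0.19 for Junb, each with an adjusted p of 0.144. It was 1.06 ± 0.42 for Atf3 and 0.64 ± 0.29 for Ier2 (adjusted p = 0.165 and 0.202). These 5 genes and 4421 of all genes (24.7%) had an unadjusted p below 0.05. The median over the 10 genes was 0.59, beside 0.00 over all genes. DESeq2 called 3 of the 10 (Ier3, Junb and Zfp36) and 1238 of all genes, and edgeR without reconstituted MPS1 inhibitor 3 called 4 (the same with Ier2) and 4005 of all genes. The inhibitor effects within each genotype had opposite signs for most of these genes, but by edgeR with all libraries the difference between them did not pass the threshold.

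Between genotypes the 10 genes split. In control tumours 8 of 10 had lower values in reconstituted than in knockout tumours, with a median log2 difference of -0.36 beside 0.00 over all genes. The libraries did not overlap for 4 of them (Jun, Junb, Ier2 and Ier3), a pattern that 15.5% of all genes had in that direction. Under the inhibitor 5 had higher and 5 lower values, with a median of 0.00, and 3 of the 10 (Jun, Zfp36 and Atf3) and 19.7% of all genes had an unadjusted p below 0.05. Atf3 and Zfp36 were higher without overlap (10.9% of all genes) and Jun was lower without overlap (9.77%). Averaged over treatments 3 of the 10 were called, beside 279 of all genes (1.56%). Zfp36 was higher and Ier3 and Jun were lower, against 1.09% and 0.47% of all genes called in those directions. In the same comparison 2 of 7 epithelial markers tested were called lower, Cldn4 (-0.57 ± 0.11, adjusted p = 0.0285) and Epcam (-0.35 ± 0.07, adjusted p = 0.0310 by edgeR), and none of any other marker list was called. The median log2 difference was -0.07 over the epithelial, -0.64 over the 8 fibroblast and -1.57 over 6 red blood cell markers. Red blood cell markers summed to 32.5 to 112 CPM in reconstituted and 49.4 to 295 CPM in knockout tumours, and fibroblast markers to 2884 to 9005 and 7609 to 18038 CPM. The part of these cells in the averaged calls, those of the lists included, was not tested. The inhibitor effect averaged over genotypes gave no call among the 10 by edgeR, or by DESeq2, and 1 of the 10 (Zfp36) and 1399 of all genes (7.82%) had an unadjusted p below 0.05. The comparisons share libraries: the control groups enter both the inhibitor and the MAVS comparisons, so a low set of reconstituted controls lowers 1 and raises the other.

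Spread among libraries of a group set some of the genes apart. The within-group SD of log2 CPM was 0.84 for Fosb, 0.62 for Egr1 and 0.51 for Fos, against 0.14 for Jun and 0.17 for Junb. Among genes of like mean level, 98.4% had a smaller spread than Fosb and 98.2% a smaller spread than Egr1, while 54.5% had a smaller spread than Jun. The spread came mainly from the reconstituted tumours: for Fosb the SD was 1.17 there and 0.205 in knockout tumours, and for Egr1 it was 0.794 and 0.379. Fos, Fosb and Egr1 were all highest in the library numbered 1 of every group, as were 293 of all genes (1.64%). The labels give no meaning to the number. The skeletal muscle markers were also highest there, summing to 2542, 381 and 72.6 CPM in inhibitor-treated reconstituted libraries 1, 2 and 3, and to 710.2, 1.55 and 207 CPM in reconstituted controls. They summed to 689, 162 and 378 CPM in inhibitor-treated knockout libraries and to 353, 12.9 and 122 CPM in knockout controls, and their part in the spread was not tested.

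**Figure D4:**
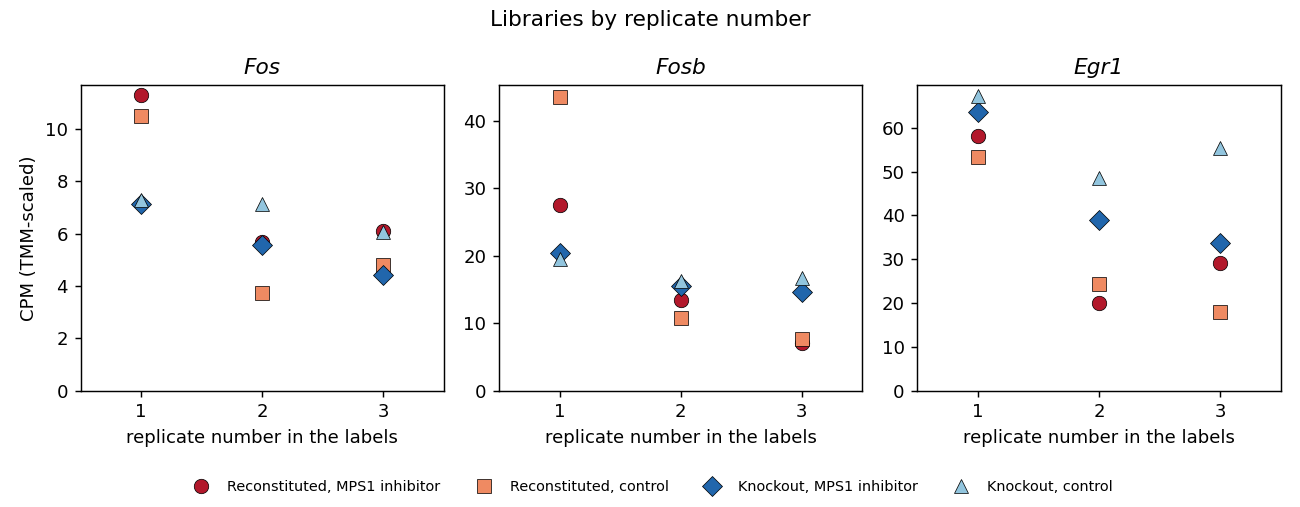
CPM of Fos, Fosb and Egr1 (y axes from 0, scaled with TMM factors) in the 12 libraries by the replicate number in the labels (x axis), with 1 symbol and colour per group. In each panel the library numbered 1 is the highest of its group, with Fosb at 27.5 and 43.5 CPM in the reconstituted groups.

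Across the 12 libraries some pairs of genes varied together, given as a description of libraries that also share their groups. Whether the genes form separate sets was not tested. Pearson's r of log2 CPM was 0.85 for Ier2 and Ier3 (Spearman's rho 0.82) and 0.79 for Zfp36 and Atf3 (0.78), while Jun and Zfp36 had -0.39 (-0.46). Fos and Fosb had 0.77 (0.76). High values also linked genes across these pairs. Junb had an r of 0.78 with Atf3, 0.76 with Ier3 and 0.72 with Ier2. Egr1 had 0.78 with Jun, 0.70 with Ier2 and 0.69 with Fos. Leaving out the 2 libraries farthest from the median of the first gene gave 0.86 for Ier2 and Ier3, 0.33 for Zfp36 and Atf3 and 0.50 for Fos and Fosb. The last 2 relations thus leaned on the libraries left out. Those libraries were chosen as the farthest, which narrows the range, so some of the fall follows from the choice. After subtracting group means, r was 0.89 for Fos and Egr1, 0.87 for Fos and Fosb and 0.83 for Fosb and Egr1, the genes that shared high values in the libraries numbered 1. By the same measure it was 0.76 for Zfp36 and Atf3 and 0.59 for Ier2 and Ier3.

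**Figure D5:**
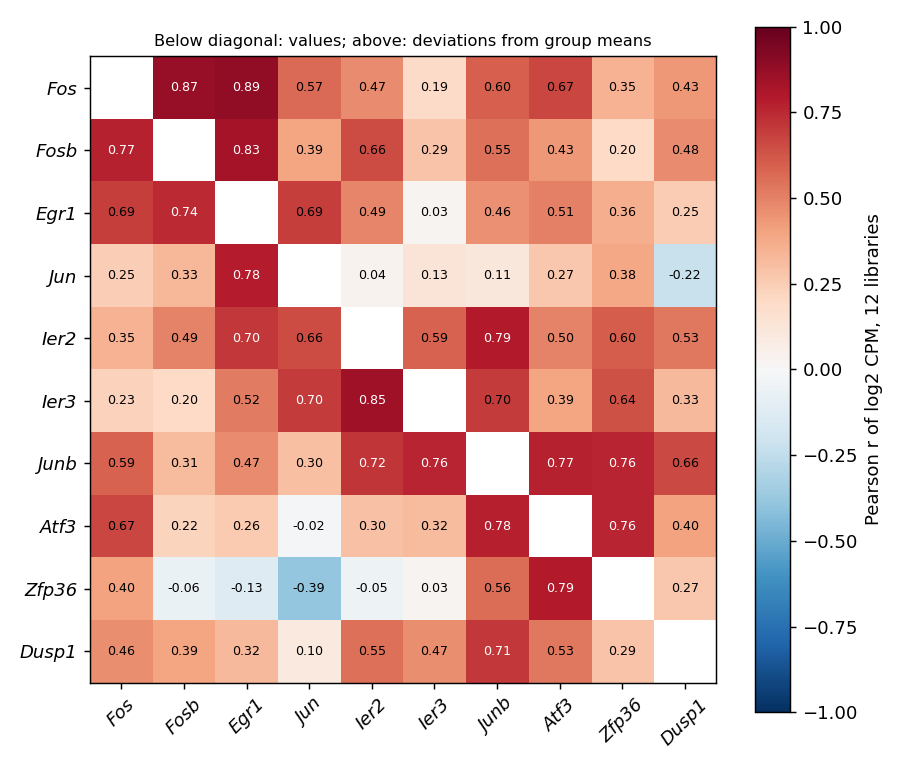
Pearson's r of log2 CPM over 12 libraries for each pair of genes (both axes), below the diagonal from the values and above it from deviations from group means, with red for positive and blue for negative r. Fos, Fosb and Egr1 form a red block at the upper left, and Jun and Zfp36 are blue below the diagonal at -0.39.

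Among 11998 genes of sufficient level, those most like each of the 10 over the 12 libraries were ranked by Pearson's r. The highest of so many genes, over libraries that share groups, have a high r by selection. All 5 are named for Egr1, Jun and Zfp36, and only some of the 5 for the other genes. For Egr1 they were Trib1 (0.93), Myc (0.91), Egr2 (0.90), Rnf217 (0.90) and Ccn2 (0.89), of which Trib1, Myc, Egr2 and Ccn2 are themselves known as rapidly induced genes. For Jun they were Acsbg1 (0.94), Klf6 (0.93), Qrfp (0.93), Tgfa (0.92) and Parvb (0.91). For Zfp36 the interferon-induced Ifitm3 led (0.97), followed by Rab5c (0.97), Ido2 (0.96), Cdc42ep2 (0.96) and Fbxw17 (0.96). For Ier3 they were led by Wsb1 (0.94) and included the Notch target Hes1 (0.93) and the glucose transporter gene Slc2a1 (0.92). For Fosb they were led by Lonp1 (0.89), with the orphan nuclear receptor gene Nr4a1 (0.83) at rank 5. For Junb they were led by Tpt1 (0.97), for Ier2 by Hnrnpa0 (0.96), for Atf3 by B4galt5 (0.95), for Fos by Pkn3 (0.89) and for Dusp1 by Rpp38 (0.87).

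The other genes of the pathway were read from lists. Of 38 other immediate early genes tested, 7 were called between genotypes averaged over treatments, with a median log2 difference of 0.10. In reconstituted tumours 4 were higher and 3 lower, against 1.09% and 0.47% of all genes called in those directions. The higher ones were the clock gene Per1 (1.03 ± 0.12, adjusted p = 0.00196 by edgeR), the growth arrest gene Gadd45g (0.90 ± 0.16), the kinase gene Sgk1 (0.43 ± 0.08) and the transcription factor gene Klf10 (0.28 ± 0.05). The lower ones were the polo-like kinase gene Plk2 (-0.73 ± 0.09), the EGF receptor inhibitor Errfi1 (-0.59 ± 0.09) and the Notch target Hes1 (-0.54 ± 0.10). Per1 averaged 113 ± 16.6 CPM in inhibitor-treated reconstituted tumours and 124 ± 14.3 CPM in reconstituted controls, against 68.1 ± 1.66 CPM in inhibitor-treated knockout tumours and 49.5 ± 12.5 CPM in knockout controls (SD, n = 3 each). Under the inhibitor alone, where 0.649% of all genes were called, 1 was called higher (Gadd45g, 1.25 ± 0.23) and 2 lower (Errfi1, -0.79 ± 0.12, and Plk2, -0.76 ± 0.13). In controls, where 0.14% of all genes were called, only Per1 was called from this list, higher by 1.33 ± 0.17. None was called for the inhibitor in reconstituted tumours, where Gadd45b had the smallest p (0.59 ± 0.14, adjusted p = 0.0729), or in knockout tumours, where Bhlhe40 did (-0.44 ± 0.14, adjusted p = 1). None was called for the interaction either, where Ppp1r15a had the smallest p (0.53 ± 0.14, adjusted p = 0.144). These are counts by edgeR with all libraries, and they depended on single libraries. Without reconstituted MPS1 inhibitor 3, edgeR called 12 for the inhibitor in reconstituted tumours and 7 for the interaction, beside 5683 and 4005 of all genes. DESeq2 called 9 and 4 there, beside 3490 and 1238 of all genes. Averaged over treatments 11 were called without reconstituted MPS1 inhibitor 3. Under the inhibitor 11 were called without that library, 1 without reconstituted control 1, and 0 without reconstituted MPS1 inhibitor 1 or any knockout MPS1 inhibitor library. In controls 0 to 5 were called without 1 library, with 0 without reconstituted control 2 or 3 or knockout control 2, 3 without reconstituted MPS1 inhibitor 1 and 5 without reconstituted MPS1 inhibitor 3.

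The next list held MAP kinase phosphatases and feedback inhibitors of the RAS and ERK pathway, many of which are themselves transcribed in response to ERK signalling. Of 15 tested, 4 were called lower in reconstituted tumours averaged over treatments: Spry1 (-0.71 ± 0.10), Spry2 (-0.61 ± 0.10), Spry4 (-1.03 ± 0.20) and the ERK phosphatase gene Dusp6 (-0.42 ± 0.09). The phosphatase gene Dusp7 was called higher (0.43 ± 0.07), 2 of 15 were positive in all, and the median was -0.15. Over all genes 0.47% were called lower and 1.09% higher in this comparison. Spry4 averaged 6.66 ± 2.19 CPM in inhibitor-treated reconstituted tumours and 7.59 ± 2.64 CPM in reconstituted controls, against 13.5 ± 2.59 CPM in inhibitor-treated knockout tumours and 15.5 ± 2.31 CPM in knockout controls (SD, n = 3 each). By edgeR with all libraries, no gene of this list was called within a treatment or for the inhibitor. DESeq2 called 7 for MAVS under the inhibitor, 6 for MAVS in controls, 1 for the inhibitor in reconstituted tumours and 2 for the interaction. Of all genes it called 1175, 719, 3490 and 1238. Without reconstituted MPS1 inhibitor 3, edgeR called 3, 3, 3 and 2 in these comparisons, and without reconstituted MPS1 inhibitor 1 it called 1 for MAVS in controls. Dusp2 had the smallest p for the inhibitor in reconstituted tumours (0.90 ± 0.22, adjusted p = 0.0729 by edgeR) and for the interaction (1.55 ± 0.31, adjusted p = 0.144). The averaged count of 5 became 2 without knockout MPS1 inhibitor 1. It became 3 without reconstituted MPS1 inhibitor 2, reconstituted control 2 or 3, knockout MPS1 inhibitor 2 or 3, or knockout control 3.

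Of 19 AP-1 target genes tested, 4 were called lower in reconstituted tumours averaged over treatments and none higher, against 0.47% and 1.09% of all genes. Of the 19, 1 was positive, and the median log2 difference was -0.73. The called genes were the EGF receptor ligand genes Hbegf (-1.27 ± 0.18), Areg (-0.94 ± 0.15) and Ereg (-0.76 ± 0.10) and the protease gene Plau (-0.73 ± 0.15). Hbegf averaged 67.2 ± 18.1 CPM in inhibitor-treated reconstituted tumours and 90.9 ± 33.8 CPM in reconstituted controls, against 174 ± 25.7 CPM in inhibitor-treated knockout tumours and 203 ± 24.5 CPM in knockout controls (SD, n = 3 each). Ereg and Hbegf were also called lower under the inhibitor (-0.80 ± 0.14 and -1.37 ± 0.26), as were 0.129% of all genes. None of the 19 was called in controls, where Ereg had -0.73 ± 0.14 (adjusted p = 0.0861 by edgeR). DESeq2 called 4 under the inhibitor and 8 in controls, beside 1175 and 719 of all genes. No target was called for the inhibitor in either genotype by edgeR with all libraries or by DESeq2, and edgeR called 1 in reconstituted tumours without reconstituted MPS1 inhibitor 3. The median was -0.03 in reconstituted and -0.24 in knockout tumours. The averaged count stayed at 3 to 5 without any 1 library. Under the inhibitor the count became 4 without reconstituted MPS1 inhibitor 3, and 1 without reconstituted MPS1 inhibitor 2 or knockout control 1 or 2. It became 0 without reconstituted MPS1 inhibitor 1, reconstituted control 2, knockout control 3 or any knockout MPS1 inhibitor library.

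Of 18 genes with AU-rich messages or related to Zfp36, 3 were called lower in reconstituted tumours averaged over treatments: the cytokine gene Csf3 (-0.97 ± 0.12), Zfp36l1, a relative of Zfp36 (-0.55 ± 0.10), and Plau, which the AP-1 list also holds. None was called higher, 5 of 18 were positive, and the median was -0.39. Over all genes 0.47% were called lower and 1.09% higher. Csf3 was called lower under the inhibitor (-0.91 ± 0.17, adjusted p = 0.0376) and in controls (-1.02 ± 0.17, adjusted p = 0.0482 by edgeR) as well. Over all genes 0.129% and 0.0224% were called lower there. In reconstituted tumours 14 of 18 were positive for the inhibitor and in knockout tumours 3 of 18, with medians of 0.29 and -0.25, but edgeR with all libraries called none in either, and none for the interaction. DESeq2 called 3 in reconstituted tumours and 2 for the interaction, beside 3490 and 1238 of all genes. Without reconstituted MPS1 inhibitor 3, edgeR called 4 and 2, beside 5683 and 4005 of all genes. The averaged count became 5 without reconstituted MPS1 inhibitor 1 and 1 without knockout MPS1 inhibitor 1 or 2 or knockout control 2. The Csf3 calls within a treatment were fragile: the list had 0 calls in controls without any of 10 libraries (all but reconstituted MPS1 inhibitor 1 and 3), and 0 under the inhibitor without any of 8 (all but reconstituted MPS1 inhibitor 2 and 3, reconstituted control 3 and knockout control 2).

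By edgeR with all 12 libraries, no gene was called in any of the 7 comparisons among 16 other AP-1 and ATF family genes, 14 genes of serum response factor and its cofactors, or 18 MAP kinases and their kinases. Averaged over treatments the smallest p in these lists were those of Maff (-0.46 ± 0.11, adjusted p = 0.0743), Crtc2 (0.17 ± 0.07, adjusted p = 0.238) and Mapk8 (-0.24 ± 0.06, adjusted p = 0.0928 by edgeR). For the inhibitor in reconstituted tumours they were those of Atf4 (0.54 ± 0.15), Creb1 (-0.40 ± 0.08) and Mapkapk2 (0.50 ± 0.12), each with an adjusted p of 0.0729. Of these 3 lists the AP-1 and ATF family had 11 of 16 positive there, with a median of 0.22. For that comparison DESeq2 called 6 of the AP-1 and ATF family, 5 of the serum response factor list and 4 of the MAP kinase list. Without reconstituted MPS1 inhibitor 3, edgeR called 7, 9 and 6. Of all genes the same fits called 3490 and 5683, so many genes outside these lists were called too. For the interaction DESeq2 called 2, 1 and 3 and edgeR without that library 5, 6 and 4, and for MAVS under the inhibitor 2, 1 and 3 and 3, 5 and 3. For MAVS in controls DESeq2 called 4, 0 and 1. In the AP-1 and ATF family edgeR called 1 for MAVS in controls without reconstituted MPS1 inhibitor 1, and 1 for MAVS under the inhibitor without reconstituted control 3.

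Features of gene structure, which the choice of the 10 genes did not use, were also read. Their median genomic length in RefSeq was 3034.5 bases, against 17403 bases for 21951 protein-coding genes in GENCODE. Of the 10, 9 were at most 7423 bases long in RefSeq, Atf3 being the exception at 13038 bases. In GENCODE 28.0% of protein-coding genes were at most that long as 7423 bases. The 2 annotations can differ in gene ends, so this comparison is approximate. The pentamer ATTTA, the core of AU-rich elements, occurred in the 3′ UTR of 9 of 10, all but Ier2. The share of all genes with it was not counted, but their median density was above 0, so it is common. Its density was 8.16 per kilobase in Ier3, 5.80 in Dusp1, 4.91 in Fos, 4.12 in Junb, 3.88 in Zfp36, 3.24 in Jun, 2.53 in Atf3, 1.64 in Egr1 and 0.466 in Fosb. The median of the 10 was 3.56 per kilobase, beside 1.35 over 19793 genes. The genes were not alike in this: 98.2% of genes had a lower density than Ier3, but only 55.9% than Egr1 and 33.6% than Fosb. The AU-rich nonamer bound by tristetraprolin, which holds that pentamer, was in the 3′ UTR of Fos, Zfp36 and Dusp1 and of 8.02% of all genes.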

How the data were processed

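The authors deposited 1 table of raw counts, whole numbers for each gene in each library, with no sign of normalisation in the values. The submitters' processing notes name Trimmomatic, HISAT2, StringTie and GRCm38 (mm10), without versions or roles, and whether counting used strand is not stated. Libraries were stranded and made from polyadenylated RNA, per the labels' protocols. Groups were taken from the labels, and no sample column was left unused. A single model with 1 mean for each group was fitted to all 12 libraries. Low-count genes were removed with filterByExpr, TMM factors (0.920 to 1.03) were applied, and edgeR 4.0.16 in R 4.3.3 gave quasi-likelihood tests of 7 comparisons. Benjamini-Hochberg adjustment ran over all 17885 genes, and genes were called below 0.05. The SE of a log2 difference was derived from its test, as the absolute difference divided by the square root of the F statistic. The fit was tested on simulated data. Alternatives were median-of-ratios and upper-quartile factors, no filter, DESeq2 1.42.0, voom of limma 3.58.1, the 6 libraries compared alone, a replicate block and each library left out. DESeq2 was run on the 27547 genes with a count, with its own filter. Its numbers over all genes are therefore not shares of the 17885. A floor of 3 counts corresponded to 0.0422 to 0.0593 CPM, which covers counting error only. Replicate libraries all differed by more than sampling noise.

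The members and lists were chosen with earlier results of these data known, so list counts are descriptions. All 10 members are named in every comparison. From each list, called genes are named (up to 6 per comparison), or the gene with the smallest p where none was called. In the likeness ranking the 5 genes with the highest r were taken per member, leaving out predicted genes and genes whose mean log2 CPM was under 1. Cyr61, Ctgf, Mkl1 and Mkl2 were matched through RefSeq synonyms. Of the listed genes, Egr4 and Mmp1a were in the table but had too few counts to be tested. Exons, 3′ UTRs and overlaps came from GENCODE M21, and gene positions and promoters from RefSeq on GRCm38.p6.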

Additional observations from a re-analysis of the deposited data

Results flagged for a closer look

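Junb was the only 1 of the 10 genes whose inhibitor-treated libraries lay wholly above controls in reconstituted tumours (243 to 370.5 CPM with the inhibitor, 196 to 220.3 CPM in controls) and wholly below controls in knockout tumours (236 to 258 CPM with the inhibitor, 267 to 299 CPM in controls). The interaction log2 difference was 0.73, with an unadjusted p of 0.00265 and an adjusted p of 0.144 by edgeR, so the difference between genotypes did not pass over all genes. The same pattern of libraries was found for 156 of all genes tested (0.872%). Without the first inhibitor-treated reconstituted library the interaction was 0.53, and without the third it was 0.84 with an adjusted p of 0.0136.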

How the results depend on the processing

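Under DESeq2 the number of the 10 genes called was 4 for the inhibitor in reconstituted tumours, 4 for MAVS in controls (Ier2, Ier3, Jun and Junb) and 3 for the interaction, against 0, 1 and 0 with edgeR. For MAVS under the inhibitor, 0 were called with the 6 libraries compared alone, with the replicate block, and without both reconstituted libraries numbered 1 (an alternative chosen after the data were seen), against 1. The last alternative also gave 0 for MAVS in controls. With the replicate block 1 (Ier3) was called for MAVS averaged over treatments, against 3. The labels give the number no meaning, and not every same-numbered pair varied together, so the numbers were not taken as pairs. The correlation of deviations was over 0.1 in 10 of 18 same-numbered pairs (median 0.133, range -0.317 to 0.515) and 11 of 36 others (median -0.083). It was over 0.1 in all 6 pairs numbered 2 (0.115 to 0.460), and 6 of 12 libraries correlated best with their own number, which is a hint from the data and not from the design. Leaving out 1 library gave 0 to 6 called for the inhibitor in reconstituted tumours, 0 to 3 for MAVS under the inhibitor, 0 to 2 for MAVS in controls, 0 to 4 for the interaction and 1 to 2 for MAVS averaged. It gave 0 throughout for the inhibitor in knockout tumours and averaged. Of 32 log2 differences of the 10 genes over 628 alternatives, 560 kept direction and side of the threshold, 35 lost the call, 27 gained it and 6 changed sign, all 6 of them for Fosb. For the inhibitor in reconstituted tumours Fosb was 0.16 without both libraries numbered 1 and -1.01 to 0.79 without 1 library. For MAVS in controls it was -0.21 with voom, -0.15 with the replicate block, -0.92 without both libraries and -0.92 to 0.64 without 1 library. Over all genes DESeq2 called 3490, 3, 1175, 719, 1238, 963 and 1 for the inhibitor in reconstituted and in knockout tumours, MAVS under the inhibitor and in controls, the interaction, MAVS averaged and the inhibitor averaged, against 0, 0, 116, 25, 0, 279 and 0 with edgeR. Alone, the 6 libraries compared gave 1, 64 and 10 for the inhibitor in reconstituted tumours, MAVS under the inhibitor and MAVS in controls. Voom gave 1 for the inhibitor in knockout tumours and 15 for MAVS in controls, the block gave 43 and 15 for MAVS under the inhibitor and in controls, and leaving out both libraries gave 1 and 14. Leaving out 1 library gave 0 to 5683, 0 to 2816, 0 to 80, 0 to 4005, 115 to 331 and 0 to 3 for the inhibitor in reconstituted tumours, MAVS under the inhibitor, MAVS in controls, the interaction, MAVS averaged and the inhibitor averaged. For the other immediate early genes, DESeq2 called 9, 13, 15, 4 and 22 for the inhibitor in reconstituted tumours, MAVS under the inhibitor, MAVS in controls, the interaction and MAVS averaged, against 0, 3, 1, 0 and 7. The cause of these changes was not tested. With 3 libraries a group, changes of Fosb and Egr1 had the widest errors.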
